A study of Mus musculus with 11 samples.

Results

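The genes described here are the collagen genes: the protein-coding genes of chromosomes 1 to 19 in the GENCODE annotation of the mouse mm9 assembly (release M1) whose symbol is Col, a number, a and a number. The rule gave 41 genes of 21418 protein-coding genes on these chromosomes. Of these, 9 are fibrillar (types 1, 2, 3, 5 and 11) and 32 are others. Collagens are secreted as chains that wind around each other into a triple helix. The fibrillar collagens assemble into the banded fibrils of skin, bone, tendon and cartilage, and fibroblasts are a main source of the types that fill loose connective tissue. Type 4 collagens build the network of basement membranes. Among the others are further networks (types 8 and 10), beaded filaments (type 6), chains on fibril surfaces, chains that anchor membranes or span them, and types 24 and 27, which also form fibrils. MacroH2A2 is a histone H2A variant with a large globular domain, and H3.3 is the histone H3 variant deposited outside DNA replication.

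The study measured where MacroH2A2 lies, and where newly made histone is deposited, in mouse embryonic stem (ES) cells and mouse embryonic fibroblasts (MEFs), by ChIP-Seq. All cells are labelled as strain 129 X C57bl/6. The ES cells are KH2 cells, which carry the M2rtTA transactivator at ROSA26 and an FRT site downstream of Col1a1, itself a member of the set. In the HA-H3.3 and HA-MacroH2A2 lines an HA-tagged histone gene under a doxycycline (Dox) responsive promoter stands at that FRT site. HA antibody libraries were made from HA-H3.3 ES cells after 3 and 6 h of Dox at 2 µg/ml, from HA-MacroH2A2 ES cells with no Dox and after 3, 6 and 12 h of Dox, and from HA-MacroH2A2 MEFs after 3, 6 and 12 h of Dox. The HA-MacroH2A2 MEFs were grown from embryos made with the HA-MacroH2A2 ES cells, were kept under puromycin to remove host cells and were induced at passage 2. The 2 libraries made with a MacroH2A2 antibody are labelled as parental KH2 ES cells and wild type MEFs without treatment, and the title of each names 2 replicates combined. The study's text also describes this antibody in HA-MacroH2A2 cells with and without Dox, so the line and Dox state behind these 2 libraries are uncertain, and only their antibody and cell type are used below. ES cells were grown on feeder MEFs that were depleted by pre-plating before induction, and what remained of them was not measured here. Whether the 2 antibodies were used on the same cultures is not settled by these sources.

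Each of the 11 libraries is the only one of its condition. No difference could therefore be set against a spread between replicates of 1 condition. For HA-MacroH2A2 both cell types were measured at the same 3 times, and MEF and ES were compared over these 6 libraries with limma, with Dox time as a block (2 residual degrees of freedom). There the time points stand in for replicates, and any difference between the cell types that changes with time counts as error. By the study's methods the ES cells were split onto 3 plates that were induced for different times, and MEFs were treated similarly. The fit therefore holds no spread between separate cultures or derivations of a cell type. This test was added after seeing the data, and no other comparison was tested. Intervals printed below are exact Clopper-Pearson 95% intervals of a ratio of read counts. They cover counting error only, and reads without molecular identifiers are not independent molecules. Intervals narrow as reads rise, and the share of all genes whose interval excludes 0 was not computed. Counts of such intervals below describe the members only. Depth ran from 6280929 to 19279472 distinct mapped intervals (reads, below) on chromosomes 1 to 19. The HA-MacroH2A2 ES library at 3 h stood apart from the others of its line: 0.1115% of its reads lay on chromosome Y against 0.0219% to 0.0244% in the no-Dox, 6 h and 12 h libraries. The HA-MacroH2A2 comparisons of MEF to ES were therefore also computed from 6 and 12 h alone, without the 3 h libraries of both cell types. Those values are given beside many, but not all, of the counts, medians and single genes that they move. No library measured RNA. Among the ES cell markers, the TSS windows of Pou5f1 and Sox2 ranked at the 93.3 and 89.9 percentile of all genes for HA-H3.3 at 6 h, and Esrrb at 41.1. The fibroblast markers ranged from 6.26 (Fap) to 54.1 (Thy1). At 3 h the ES cell markers ranged from 32.9 (Zfp42) to 81.5 (Pou5f1) and the fibroblast markers from 13.7 (Pdgfra) to 63.1 (Twist2), so that the 2 lists overlapped at both times. The MEF libraries hold no H3.3 data for such a check.

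For each gene 2 measures were taken. The TSS level is the number of reads whose midpoint lies within 600 bp of the transcription start site (TSS), divided by the library's reads on chromosomes 1 to 19 and scaled to 1000000 (r.p.m.). The body density is the same count from 2 kb after the TSS to the end of the gene, scaled in the same way and divided by the length in kb, so that genes of different length can be compared. All 41 genes were long enough for a body density, as were 17417 genes in all. The TSS is the start of the annotated gene. The longest coding transcript starts further away than 600 bp at Col1a2 (679 bp), Col27a1 (1431 bp) and Col18a1 (52872 bp). An even spread over chromosomes 1 to 19 would give 0.4045 r.p.m. per kb in every library. Collagen genes are long: the median was 107.3 kb (7.11 to 419 kb) against 15.5 kb for all genes, with a median of 48 exons against 6. The fibrillar genes had a median of 38.2 kb and 51.2% GC, and the others 114.4 kb and 47.6% GC.

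The sequences below show the promoters of 6 fibrillar genes and of 4 others on which the results turn. Each is the 120 bases before the TSS on the coding strand, from the NCBIM37 (mm9) genome: Col1a1 at chr11:94797418-94797537 (+), Col1a2 at chr6:4454694-4454813 (+), Col3a1 at chr1:45368263-45368382 (+), Col5a2 at chr1:45560128-45560247 (-), Col5a1 at chr2:27741825-27741944 (+), Col2a1 at chr15:97835156-97835275 (-), Col14a1 at chr15:55139185-55139304 (+) and Col15a1 at chr4:47220913-47221032 (+). The last line is the whole stretch of 71 bases between the divergent starts of Col4a4 and Col4a3, chr1:82583425-82583495 (+). Capitals mark 3 motifs found on either strand, which were searched by name as the CCAAT box, the GC box and the TATA box. The last of these counts only where its whole match lies within the stretch 40 to 21 bases before the TSS. The CCAAT box was searched as CCAAT and shows as ATTGG where it lies on the opposite strand. The GC box was searched as GGGCGG and shows as CCGCCC on the opposite strand. The TATA box was searched as TATAAA and shows as TTTATA on the opposite strand.
Col1a1: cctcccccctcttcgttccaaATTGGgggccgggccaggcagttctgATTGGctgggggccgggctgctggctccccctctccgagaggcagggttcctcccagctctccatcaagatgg
Col1a2: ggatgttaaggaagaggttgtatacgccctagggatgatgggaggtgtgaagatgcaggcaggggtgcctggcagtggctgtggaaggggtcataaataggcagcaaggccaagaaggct
Col3a1: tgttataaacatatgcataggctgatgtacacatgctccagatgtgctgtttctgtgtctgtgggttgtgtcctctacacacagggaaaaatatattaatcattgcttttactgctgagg
Col5a2: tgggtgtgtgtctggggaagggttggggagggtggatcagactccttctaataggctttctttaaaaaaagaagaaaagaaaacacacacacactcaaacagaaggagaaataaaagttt
Col5a1: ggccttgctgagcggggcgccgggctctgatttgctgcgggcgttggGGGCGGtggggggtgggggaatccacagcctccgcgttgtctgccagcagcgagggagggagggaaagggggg
Col2a1: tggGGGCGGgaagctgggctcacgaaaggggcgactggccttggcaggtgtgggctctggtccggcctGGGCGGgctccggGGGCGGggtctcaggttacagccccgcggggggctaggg
Col14a1: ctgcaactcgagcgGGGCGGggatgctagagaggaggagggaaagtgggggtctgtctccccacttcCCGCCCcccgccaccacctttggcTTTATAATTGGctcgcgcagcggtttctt
Col15a1: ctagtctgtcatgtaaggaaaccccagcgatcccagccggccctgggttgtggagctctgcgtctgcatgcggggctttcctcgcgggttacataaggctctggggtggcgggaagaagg
Col4a4 to Col4a3: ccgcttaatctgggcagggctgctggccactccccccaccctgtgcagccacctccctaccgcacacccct

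Col1a1 has ATTGG at 99 and 73 bases before its start. The stretches of Col1a2, Col3a1 and Col5a2 hold none of the 3 motifs in capitals, and those of Col3a1 and Col5a2 are rich in A and T (40% and 40.8% GC). Those of Col5a1 and Col2a1 are rich in G and C (72.5% and 75% GC) and hold 1 and 3 GC boxes. At Col1a2 the longest coding transcript starts 679 bases from the TSS used here, so that its stretch is not the promoter of that transcript. Col14a1 has TTTATA at -29 directly followed at -23 by ATTGG, and GGGCGG and CCGCCC further upstream. On either strand, CCAAT occurred in the 200 bases before the TSS in 13 of 41 collagen genes (31.7%) and in 30.3% of all 21418 promoters, and in 5 of the 9 fibrillar genes. GGGCGG occurred in 21 of 41 (51.2%) against 38.2% of all, and TATAAA in its window in 3 of 41 (7.32%) against 2.68%. These matches are descriptions of the letters and were not tested as binding sites. The share of CpG found over that expected from base composition, taken over the whole TSS window of 1200 bp, had a median of 0.404 in collagen genes and 0.543 in all genes, and exceeded 0.6 in 11 of 41 (26.8%) against 44.5%. It was 0.317 at Col1a1, 0.246 at Col1a2, 0.176 at Col3a1 and 0.286 at Col5a2, and 0.795 at Col5a1, the single fibrillar gene above 0.6.

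The first question was how much MacroH2A2 the bodies of collagen genes hold in each cell type. In ES cells anti-MacroH2A2 density in collagen bodies was above that of most genes: the median was 0.64 r.p.m. per kb against 0.468 for all genes. In MEFs it was 0.505 against 0.386. Newly made HA-MacroH2A2 in collagen bodies of ES cells had medians of 0.389, 0.436 and 0.484 r.p.m. per kb at 3, 6 and 12 h, against 0.601, 0.481 and 0.467 for all genes, beside 0.454 in the no-Dox library. This library is the control of the HA antibody, and any HA-MacroH2A2 made without Dox would be counted in it as well. In MEFs the 3 medians were 0.501, 0.54 and 0.515, against 0.355 to 0.375 for all genes. The no-Dox control exists for HA-MacroH2A2 ES cells only, and there is none for HA-MacroH2A2 MEFs or HA-H3.3 ES cells.

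**Figure D1:**
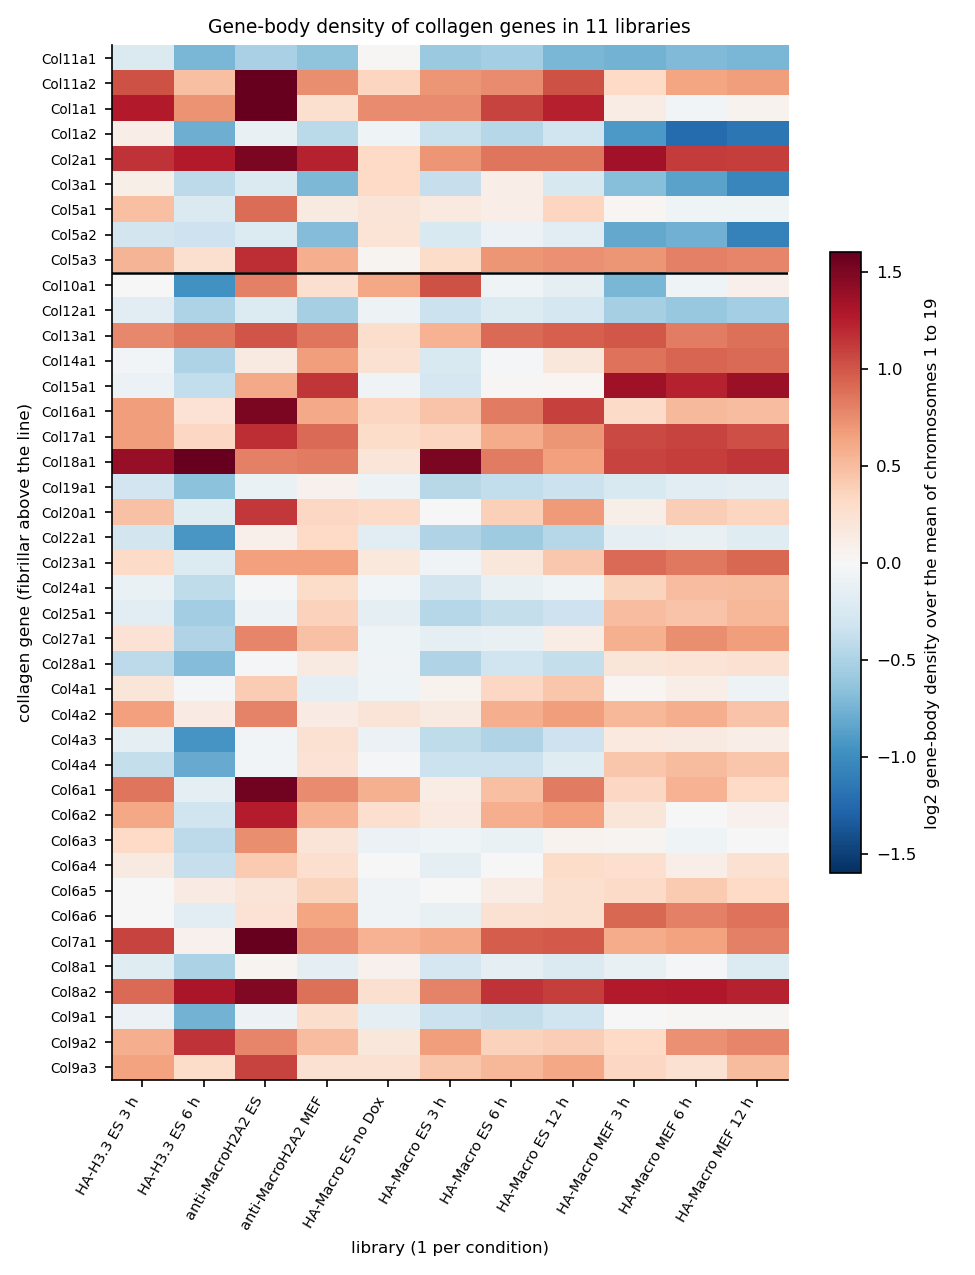
Heat map of the body density of each of the 41 collagen genes (vertical axis, 9 fibrillar genes above the line) in each of the 11 libraries (horizontal axis, 1 library per condition), as log2 over the mean of chromosomes 1 to 19 (0.4045 r.p.m. per kb). Col1a1, Col11a2 and Col7a1 stand out as dense in anti-MacroH2A2 ES (1.34, 1.51 and 1.3 r.p.m. per kb), and Col15a1 in the 3 HA-MacroH2A2 MEF libraries (0.952 to 1.05).

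Among the fibrillar genes, Col1a1 (chr11:94797538-94814356, +) encodes the main chain of type 1 collagen, the most abundant protein of skin and bone. Its body density was 0.978 and 0.668 r.p.m. per kb for HA-H3.3 at 3 and 6 h, 1.34 and 0.484 for anti-MacroH2A2 in ES cells and MEFs, and 0.682 without Dox. For HA-MacroH2A2 it was 0.682, 0.853 and 0.96 in ES cells and 0.438, 0.391 and 0.42 in MEFs at 3, 6 and 12 h. All MEF libraries thus lay below all ES libraries of the same antibody, and the ES values at 6 and 12 h were above the no-Dox level. The anti-MacroH2A2 ratio of MEF to ES was -1.47 on the log2 scale (102 reads against 165, interval -1.85 to -1.11), at the 0.898 percentile of all gene bodies. The HA-MacroH2A2 ratio, with the 3 time points summed, was -1.0 (247 reads against 611, interval -1.22 to -0.78), at percentile 17.8. The tagged histone cassette stands downstream of this gene in the HA lines, and its part in these values was not tested.

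Col1a2 (chr6:4454814-4491543, +) encodes the partner chain of type 1 collagen. Its body density was 0.435 and 0.235 r.p.m. per kb for HA-H3.3, 0.372 and 0.299 for anti-MacroH2A2 in ES cells and MEFs, 0.385 without Dox, 0.316, 0.295 and 0.324 for HA-MacroH2A2 in ES cells and 0.214, 0.172 and 0.182 in MEFs. Here HA-MacroH2A2 lay below the no-Dox level at each time in both cell types, lowest in MEFs. The log2 ratio of MEF to ES was -0.73 for HA-MacroH2A2 (interval -0.95 to -0.51) and -0.31 for anti-MacroH2A2 (interval -0.68 to 0.06).

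Col3a1 (chr1:45368383-45406551, +) and Col5a2 (chr1:45431166-45560127, -) are neighbours transcribed towards each other, and encode the fibril-forming type 3 chain and a type 5 chain that sets fibril width. Col3a1 bodies held 0.431 and 0.303 r.p.m. per kb for HA-H3.3, 0.344 and 0.245 for anti-MacroH2A2 in ES cells and MEFs, 0.505 without Dox, 0.312, 0.435 and 0.34 for HA-MacroH2A2 in ES cells and 0.253, 0.223 and 0.197 in MEFs. For Col5a2 the same values were 0.33 and 0.32, 0.347 and 0.25, 0.469, then 0.341, 0.379 and 0.356 in ES cells, and 0.23, 0.237 and 0.19 in MEFs. Both genes repeat the order seen at Col1a2, with the MEF libraries below the ES libraries and all of them below the no-Dox library. Their HA-MacroH2A2 ratios were -0.73 (-0.93 to -0.54) and -0.75 (-0.86 to -0.65), and their anti-MacroH2A2 ratios -0.49 (-0.88 to -0.10) and -0.47 (-0.67 to -0.27).

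The other type 5 chains and the cartilage chains were mixed. Col5a1 (chr2:27741945-27895034, +) held 0.564 and 0.344 r.p.m. per kb for HA-H3.3, 0.754 and 0.448 for anti-MacroH2A2 in ES cells and MEFs, 0.466 without Dox, 0.452, 0.436 and 0.512 for HA-MacroH2A2 in ES cells and 0.415, 0.385 and 0.384 in MEFs. Col11a2 (chr17:34176382-34203630, +), a cartilage chain, held 0.82 and 0.564, then 1.51 and 0.679, 0.511 without Dox, 0.658, 0.686 and 0.822 in ES cells and 0.506, 0.626 and 0.645 in MEFs. For anti-MacroH2A2 in ES cells Col11a2 was the densest fibrillar gene, followed by Col1a1, Col2a1, Col5a3 and Col5a1. Their anti-MacroH2A2 ratios were -0.75 (-0.88 to -0.62) and -1.15 (-1.40 to -0.91), whereas the HA-MacroH2A2 ratios were smaller, at -0.25 (-0.33 to -0.18) and -0.26 (-0.41 to -0.11).

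Col2a1 (chr15:97806033-97835155, -), the main fibril chain of cartilage, went the other way for HA-MacroH2A2. Its body density was 0.904 and 0.975 r.p.m. per kb for HA-H3.3, 1.15 and 0.954 for anti-MacroH2A2 in ES cells and MEFs, 0.505 without Dox, 0.66, 0.734 and 0.735 for HA-MacroH2A2 in ES cells and 1.03, 0.879 and 0.872 in MEFs. It was the only fibrillar gene with all 3 HA-MacroH2A2 MEF libraries above all 3 ES libraries, and its log2 ratio was 0.36 (0.23 to 0.49) beside -0.27 (-0.50 to -0.03) for anti-MacroH2A2. Col5a3 (chr9:20574494-20619511, -) held 0.589 and 0.483, then 0.92 and 0.606, 0.419 without Dox, 0.495, 0.659 and 0.673 in ES cells and 0.661, 0.705 and 0.697 in MEFs. Col11a1 (chr3:113733458-113923636, +) was low throughout, with 0.345 and 0.244, 0.283 and 0.258, 0.408 without Dox, 0.268, 0.278 and 0.244 in ES cells and 0.239, 0.247 and 0.244 in MEFs.

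The highest body ratios belonged to genes that form no fibrils by themselves. Col15a1 (chr4:47221033-47326039, +) encodes a proteoglycan collagen next to basement membranes and is one of the 2 multiplexins. Its body density was 0.38 and 0.308 r.p.m. per kb for HA-H3.3, 0.615 and 0.896 for anti-MacroH2A2 in ES cells and MEFs, 0.391 without Dox, 0.335, 0.411 and 0.413 for HA-MacroH2A2 in ES cells and 1.04, 0.952 and 1.05 in MEFs. In ES cells HA-MacroH2A2 was near the no-Dox level, and in MEFs above 0.9 at each time. The log2 ratio of MEF to ES was 1.40 for HA-MacroH2A2 (4215 reads against 1969, interval 1.33 to 1.48), a 2.65-fold difference at the 99.8 percentile of all bodies, and 0.54 for anti-MacroH2A2 (1313 against 525, interval 0.39 to 0.69), at percentile 97.1.

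Col14a1 (chr15:55139305-55352358, +) encodes a chain that coats fibril surfaces (a FACIT collagen). It held 0.393 and 0.286 r.p.m. per kb for HA-H3.3, 0.448 and 0.641 for anti-MacroH2A2 in ES cells and MEFs, 0.48 without Dox, 0.343, 0.397 and 0.458 for HA-MacroH2A2 in ES cells and 0.737, 0.771 and 0.756 in MEFs. Col25a1 (chr3:129883809-130302795, +), a membrane-spanning collagen and the longest gene of the set, held 0.359 and 0.276, then 0.384 and 0.522, 0.366 without Dox, 0.294, 0.311 and 0.321 in ES cells and 0.571, 0.553 and 0.585 in MEFs. At both genes the HA-MacroH2A2 ES libraries lay below the no-Dox level and the HA-MacroH2A2 MEF libraries above it. Their HA-MacroH2A2 ratios were 0.91 (0.86 to 0.97) and 0.89 (0.85 to 0.94), and their anti-MacroH2A2 ratios 0.51 (0.39 to 0.64) and 0.44 (0.35 to 0.54).

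Col7a1 (chr9:108855631-108886920, +), the chain of the anchoring fibrils that tie epidermis to dermis, had the third lowest anti-MacroH2A2 ratio. Its body density was 0.859 and 0.423 r.p.m. per kb for HA-H3.3, 1.3 and 0.672 for anti-MacroH2A2 in ES cells and MEFs, 0.597 without Dox, 0.618, 0.789 and 0.798 for HA-MacroH2A2 in ES cells and 0.609, 0.63 and 0.707 in MEFs. The anti-MacroH2A2 ratio was -0.95 (280 reads against 315, interval -1.19 to -0.71) and the HA-MacroH2A2 ratio -0.16 (-0.29 to -0.02).

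Counted over the set, a gene is called higher or lower where the ratio of MEF to ES, with 1 read added to each count, was at least 1.5-fold. For anti-MacroH2A2, 0 of 41 bodies were called higher, where 2.37% of all genes were, and 12 were called lower, where 28.4% of all were. The 12 were Col1a1, Col11a2, Col7a1, Col16a1, Col9a3, Col20a1, Col6a1, Col5a1, Col6a2, Col4a2, Col8a2 and Col5a3, each with its counting interval below 0. The median was -0.29 against -0.35 for all genes. For HA-MacroH2A2, 9 of 41 bodies were called higher, where 5.21% of all genes were, and 4 lower, where 48.3% of all were. The median was 0.08 against -0.56 for all genes. The 9 higher genes were Col15a1, Col14a1, Col25a1, Col4a4, Col6a6, Col27a1, Col23a1, Col24a1 and Col28a1, none of them in the fibrillar group of types 1, 2, 3, 5 and 11. Col24a1 and Col27a1, which encode fibril-forming chains outside that rule, are among them. The 4 lower genes were Col1a1, Col5a2, Col3a1 and Col1a2, all fibrillar, and all 13 intervals excluded 0. At 6 and 12 h together 7 bodies were called higher (4.43% of all genes) and 4 lower (34.5% of all), with a median of 0.07 against -0.44 for all genes. Col23a1 and Col28a1 were then no longer called, and the 4 lower genes were the same. Col15a1 was then at 1.31, Col1a1 at -1.14, Col3a1 at -0.91, Col5a2 at -0.83, Col1a2 at -0.79 and Col2a1 at 0.25.

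Since the median gene was itself lower in MEFs, by -0.35 for anti-MacroH2A2 and -0.56 for HA-MacroH2A2 on the log2 scale, the calls were also taken relative to that shift. Then 9 bodies were called higher (8.67% of all genes) and 3 lower (9.26% of all; Col7a1, Col1a1 and Col11a2) for anti-MacroH2A2. For HA-MacroH2A2, 24 were called higher (21.5% of all) and 0 lower (8.25% of all). The direction of the HA-MacroH2A2 change at Col1a1, Col1a2, Col3a1 and Col5a2 stayed below 0 relative to the shift but no longer reached 1.5-fold. Without the 3 h libraries Col1a1, at -1.14 against -0.44 for all genes, was over 1.5-fold below the shift, and Col1a2, Col3a1 and Col5a2 were not. The counts relative to the shift were not retaken without these libraries. The gap between fibrillar and other members does not depend on the shift. For anti-MacroH2A2 the fibrillar median was -0.49 (0 called higher, 4 of 9 lower) and that of the others -0.17 (0 higher, 8 of 32 lower). Of all bodies 2.37% were called higher and 28.4% lower with this antibody, so that the count of the others is near the share of all genes. For HA-MacroH2A2 the medians were -0.26 (0 higher, 4 of 9 lower) and 0.20 (9 higher, 0 of 32 lower), where 48.3% of all genes were lower and their median was -0.56, so that the fibrillar count is near the share of all genes. The medians without the 3 h libraries were -0.30 and 0.18. With reads summed over the genes, the fibrillar ratio was -0.59 (-0.66 to -0.51) for anti-MacroH2A2 and -0.26 (-0.30 to -0.22) for HA-MacroH2A2, and that of the others 0.02 (-0.00 to 0.05) and 0.44 (0.43 to 0.46).

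**Figure D2:**
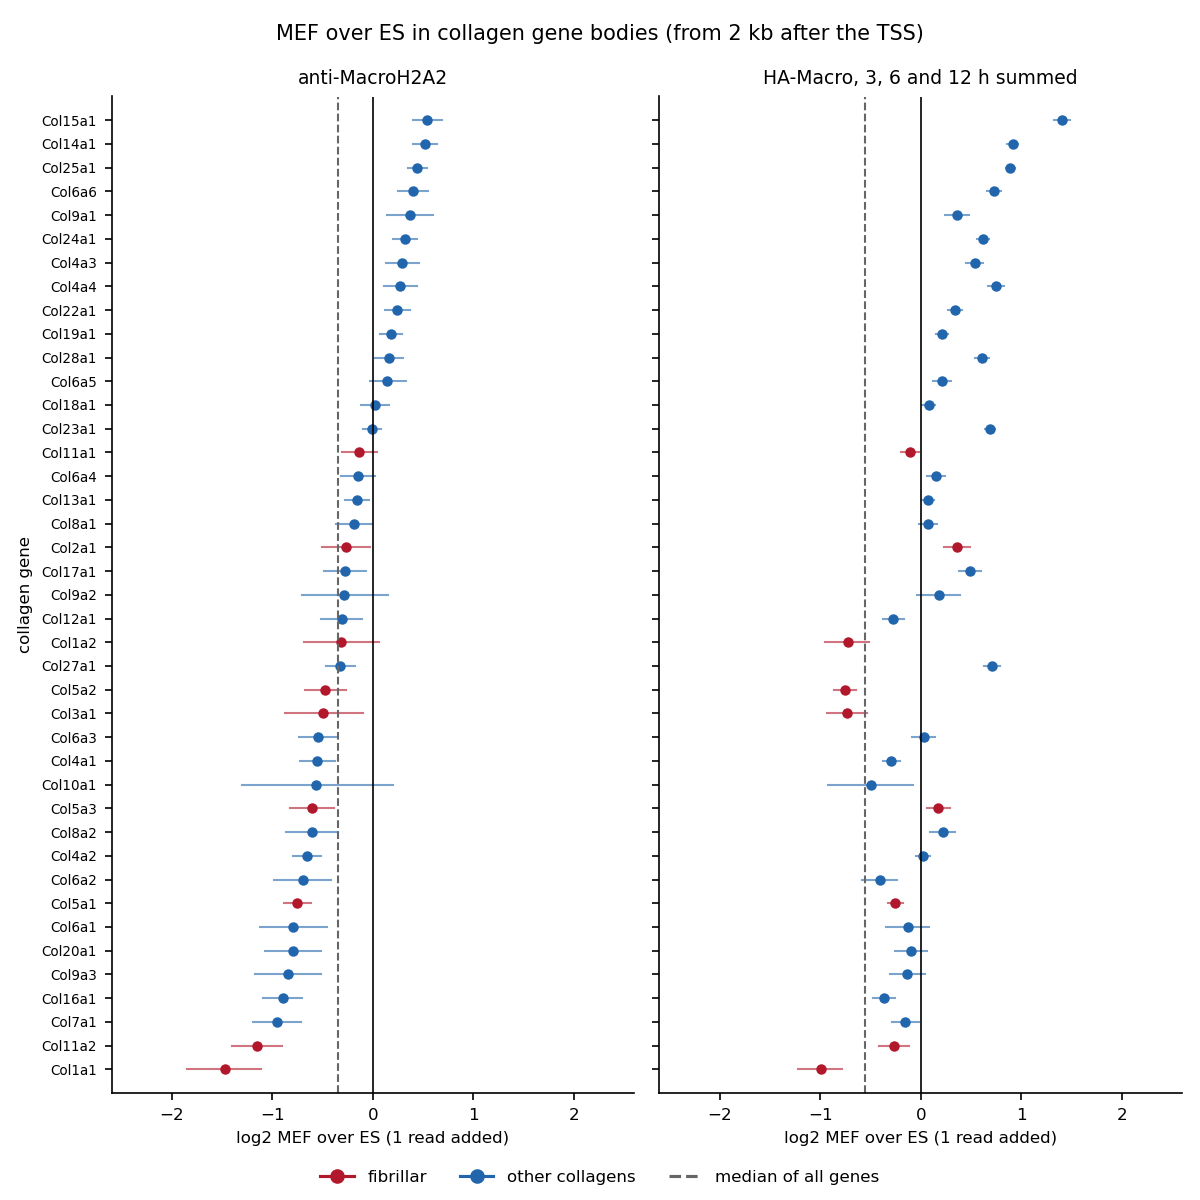
Log2 ratio of MEF to ES with 1 read added (horizontal axis) in the body of each collagen gene (vertical axis), for anti-MacroH2A2 (left) and HA-MacroH2A2 with 3, 6 and 12 h summed (right); lines are exact 95% counting intervals and the dashed line is the median of all genes (-0.35 and -0.56). Fibrillar genes crowd towards the lower end, Col1a1 being lowest at -1.47 and -1.0, and Col15a1 is highest at 0.54 and 1.40.

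The 3 HA-MacroH2A2 time points are different conditions and not replicates, yet their order in the 2 cell types can be compared. All 3 MEF libraries lay above all 3 ES libraries in 17 of 41 collagen bodies, where 11.6% of all genes showed this, and below them in 7, where 57.1% of all genes did. The 17 held 1 fibrillar gene, Col2a1, and 16 others. The 7 held 6 fibrillar genes (Col1a1, Col1a2, Col3a1, Col5a1, Col5a2 and Col11a2) and 1 other, Col12a1, a FACIT collagen. From the 6 and 12 h libraries alone, the MEF libraries lay above in 20 (14.7% of all genes) and below in 13 (67.1% of all). The 13 held the same 6 fibrillar genes and 7 others (Col9a3, Col16a1, Col4a1, Col12a1, Col7a1, Col13a1 and Col6a2). At either set of times 6 of the 9 fibrillar genes thus lay below, near the shares of all genes. Of the 32 others 1 and 7 did. At 6 h alone the same 4 fibrillar genes were called lower in MEFs, where 32.5% of all genes were, and 8 others higher, where 5.45% were. At 12 h alone Col16a1 and Col6a2 joined the 4 (31.9% of all genes), with 6 called higher (4.38% of all). At 3 h alone, which rests on the ES library that stood apart, Col1a1 and Col10a1 were called lower (52.1% of all) and 11 higher (10.2% of all). The medians of the 41 bodies at 3, 6 and 12 h alone were 0.22, 0.11 and 0.05.

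In the limma fit over the 6 HA-MacroH2A2 libraries, with Benjamini-Hochberg adjustment over all genes, 12 of 41 bodies passed at an adjusted p under 0.05 as higher in MEFs, where 7.21% of all genes did, and 4 as lower, where 45.4% did. The 4 were the fibrillar genes Col1a1, Col5a2, Col1a2 and Col3a1, so that 4 of the 9 fibrillar genes passed as lower, near the share of all genes. At Col5a2, Col1a2 and Col3a1 every HA-MacroH2A2 library with Dox lay below the no-Dox level. Col1a1 was at -0.97 on the log2 scale (SE 0.20, limma adjusted p = 0.0149) and Col5a2 at -0.71 (SE 0.15, limma adjusted p = 0.0149). Col1a2 was at -0.71 (SE 0.19, limma adjusted p = 0.0192) and Col3a1 at -0.68 (SE 0.21, limma adjusted p = 0.0275). Each of these 4 was lower in MEFs at 3 of 3 times. The 12 were the 9 genes called higher above with Col4a3, Col17a1 and Col22a1, none of them in the fibrillar group. Col25a1 was at 0.89 (SE 0.07, limma adjusted p = 0.0027), Col15a1 at 1.40 (SE 0.13, limma adjusted p = 0.0038) and Col14a1 at 0.93 (SE 0.10, limma adjusted p = 0.0065), each higher at 3 of 3 times. Col2a1 (0.38, limma adjusted p = 0.0917), Col5a1 (-0.24, 0.129) and Col11a2 (-0.28, 0.193) did not pass. Without the 3 h libraries, where 1 residual degree of freedom remains and all genes share 1 trend of the spread, 18 passed as higher (11.1% of all genes) and 11 as lower (56.9% of all). Col2a1 was then among the 18, and Col5a1 and Col11a2 among the 11. Col2a1 also passed as higher without the time block.

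By role, the medians of the body ratio for anti-MacroH2A2 were -0.55 in network collagens (types 4, 8 and 10; 2 of 7 called lower), -0.55 in beaded filament and anchoring collagens (types 6 and 7; 3 of 7 lower), -0.29 in FACIT collagens (3 of 9 lower), -0.08 in membrane-spanning collagens (0 of 4), 0.28 in the 2 multiplexins Col15a1 and Col18a1 (0 of 2) and 0.16 in Col24a1, Col27a1 and Col28a1 (0 of 3). For HA-MacroH2A2 the medians in the same order were 0.07, 0.03, 0.18, 0.59, 0.74 and 0.62, with 1, 1, 1, 2, 1 and 3 genes called higher and 0 lower, beside 5.21% and 48.3% of all genes. With 6 and 12 h summed they were 0.11, -0.0059, 0.21, 0.49, 0.85 and 0.59, with 1, 1, 1, 1, 1 and 2 called higher and 0 lower, beside 4.43% and 34.5% of all. Col18a1, the other multiplexin and the source of endostatin, differed from Col15a1: its HA-MacroH2A2 ratio was 0.08 (0.02 to 0.14), or 0.39 (0.31 to 0.46) without the 3 h libraries, and its anti-MacroH2A2 ratio 0.02 (-0.12 to 0.16). The interstitial collagens typical of fibroblasts (Col1a1, Col1a2, Col3a1, Col5a1, Col5a2, Col6a1, Col6a2 and Col6a3) had medians of -0.62 and -0.57 for the 2 antibodies, with 4 of 8 called lower in each, where 28.4% and 48.3% of all bodies were, so that the HA-MacroH2A2 count is near the share of all genes. The cartilage collagens (types 2, 9, 10 and 11) had -0.29 and -0.11, with 2 and 0 of 7 lower. Leaving out the 3 h libraries, the HA-MacroH2A2 medians of these 2 lists were -0.68 and 0.13, the latter with its sign changed.

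Gene length moved with the body ratio of both antibodies over the 41 genes, and base composition with that of anti-MacroH2A2. The correlation with log gene length was 0.69 for anti-MacroH2A2 and 0.53 for HA-MacroH2A2 (Pearson; Spearman 0.66 and 0.51), against 0.21 and 0.11 over all 17417 bodies. With the GC content of the gene it was -0.57 and -0.06, against -0.40 and 0.04 over all. The points share their libraries, and these are descriptions across genes. The part of length and GC in the gap between the shorter, GC-richer fibrillar genes and the others was not tested.

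At transcription start sites the counts are small, and single collagen genes can rarely be resolved. A TSS window held a median of 23 reads over both anti-MacroH2A2 libraries together (3 to 60). The median TSS level of the members was 1.21 r.p.m. in ES cells and 0.703 in MEFs, beside 1.09 and 0.633 for all genes. The median log2 ratio of MEF to ES was -0.46 against -0.78 for all genes. Called higher were 2 of 41, Col9a1 (9 reads against 2) and Col22a1 (7 against 2), where 7.06% of all genes were, and 19 were called lower, where 58.5% of all were. The added read is not scaled to depth. It draws windows with few reads towards the ratio of equal counts, which is -0.78 for this antibody and so counts as lower. For HA-MacroH2A2 summed, where the ES side is deeper, the pull is towards a ratio above 0. The shares of all genes carry the same pull. In only 7 of the 41 did the counting interval exclude 0, all of them lower: Col16a1, Col8a1, Col5a1, Col7a1, Col11a2, Col6a1 and Col9a2. The fibrillar genes had a median of -1.29 (0 higher, 5 of 9 lower; summed reads 88 against 101, -0.98 with interval -1.41 to -0.55). The others had -0.34 (2 higher, 14 of 32 lower; summed -0.39, -0.59 to -0.19). The fibrillar median lay below the shift of all genes and that of the others above it. Relative to the shift, 0 fibrillar TSSs were called higher and 4 lower, and 15 of the others were called higher and 3 lower, where 25.6% of all genes were higher and 20.2% lower. Of the 4, Col5a1 and Col11a2 had intervals below 0, while Col3a1 and Col5a2 rest on 4 and 3 reads in both libraries together.

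Among the 21 members with at least 20 reads in both anti-MacroH2A2 libraries together, Col16a1 had the lowest ratio. It encodes a FACIT collagen (chr4:129725084-129776527, +), and its TSS held 18 reads in ES cells and 8 in MEFs for anti-MacroH2A2, a log2 ratio of -1.86 (interval of the ratio without added reads -3.36 to -0.68). It held 9 and 15 reads for HA-H3.3, 6 without Dox, 18, 20 and 19 for HA-MacroH2A2 in ES cells and 10, 6 and 6 in MEFs. Col5a1 held 19 and 11 reads for anti-MacroH2A2, -1.52 (-2.79 to -0.42), with 16 and 38 for HA-H3.3, 9 without Dox, 21, 17 and 10 for HA-MacroH2A2 in ES cells and 7, 10 and 16 in MEFs. Col7a1 held 15 and 9, -1.46 (-2.89 to -0.23), with 14 and 38 for HA-H3.3, 15 without Dox, 15, 20 and 27 in ES cells and 7, 10 and 15 in MEFs.

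At the other end stood the type 4 pair and a type 6 gene. The starts of Col4a3 (chr1:82583496-82718634, +) and Col4a4 (chr1:82447298-82583424, -), which encode basement membrane chains of the kidney glomerulus, lie 72 bp apart, so that their TSS windows share most reads and count as 1 region. Col4a3 held 16 reads in ES cells and 37 in MEFs for anti-MacroH2A2, a log2 ratio of 0.38 (-0.45 to 1.37), with 15 and 10 for HA-H3.3, 8 without Dox, 17, 15 and 15 for HA-MacroH2A2 in ES cells and 17, 16 and 33 in MEFs. Col4a4 held 15 and 34, 0.35 (-0.52 to 1.38), with 13 and 11 for HA-H3.3, 8 without Dox, 16, 15 and 16 in ES cells and 14, 18 and 32 in MEFs. For HA-MacroH2A2 the pair was called higher in MEFs, at 0.79 (0.23 to 1.37) and 0.74 (0.19 to 1.33). Col6a5 (chr9:105758400-105862974, -) held 14 and 28 reads for anti-MacroH2A2, 0.17 (-0.75 to 1.26), with 5 and 10 for HA-H3.3, 3 without Dox, 12, 5 and 11 for HA-MacroH2A2 in ES cells and 18, 17 and 29 in MEFs. Its HA-MacroH2A2 ratio of 1.47 (64 reads against 28, interval 0.84 to 2.19) was the highest of the set, at the 99.3 percentile of all genes.

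The other divergent pair, Col4a1 and Col4a2, encodes the basement membrane chains found in nearly all tissues, with starts 21 bp apart. Col4a1 held 19 reads in each anti-MacroH2A2 library, 11 and 19 for HA-H3.3, 11 without Dox, 13, 22 and 8 for HA-MacroH2A2 in ES cells and 8, 7 and 13 in MEFs. Col4a2 held 19 and 19, 11 and 20, 11, then 15, 22 and 8 in ES cells and 8, 7 and 16 in MEFs. Equal read numbers at the greater MEF depth give a ratio of -0.78 (-1.78 to 0.22) for each, equal to the median of all genes. The 2 type 4 pairs thus stood at different places in the set, although the interval of each included 0 for this antibody.

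At the fibrillar starts, anti-MacroH2A2 reads were too few for a gene-by-gene statement at Col1a1 (9 in ES cells, 6 in MEFs), Col1a2 (3 and 4), Col3a1 (3 and 1), Col5a2 (3 and 0) and Col11a1 (3 and 4). At Col5a2 a count of 0 allows up to 3 reads, and no fold is given. Col11a2 held 26 and 16, -1.45 (-2.48 to -0.53), Col2a1 21 and 27, -0.43 (-1.29 to 0.48), and Col5a3 14 and 19, -0.37 (-1.41 to 0.77).

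HA-MacroH2A2 gave more reads, a median of 76 a window with the 3 time points summed (19 to 202). The median ratio was -0.12 against -0.62 for all genes. Called higher were 10 of 41, where 9.38% of all genes were, and 9 were called lower, where 51.4% were. Of the 19, 11 had an interval that excluded 0: Col6a5, Col9a1, Col4a3, Col4a4, Col14a1 and Col27a1 higher, and Col1a1, Col16a1, Col20a1, Col25a1 and Col7a1 lower. Without the 3 h libraries the intervals of Col9a1 (-0.37 to 2.29), Col27a1 (-0.17 to 1.40) and Col20a1 (-1.72 to 0.03) included 0. Called with an interval that excluded 0 were then also Col15a1 (0.093 to 1.6) and Col2a1 (0.15 to 1.40) as higher. Col6a2 (-2.71 to -0.13), Col8a1 (-3.52 to -0.28) and Col11a2 (-1.45 to -0.22) joined as lower. With the 3 time points summed and relative to the shift of all genes, 18 were called higher, where 27.7% of all were, and 1, Col1a1, lower, where 24.4% were. Without the 3 h libraries Col16a1 (-1.44), Col6a2 (-1.235) and Col8a1 (-1.56) were, like Col1a1 (-1.97), over 1.5-fold below the median of all genes (-0.51). The fibrillar median was -0.18 (0 higher, 1 of 9 lower; summed -0.22, -0.45 to 0.01) and that of the others 0.10 (10 higher, 8 of 32 lower; summed 0.08, -0.03 to 0.20). Without the 3 h libraries the median of the 41 was -0.0093 against -0.51 for all genes, with 12 called higher (10.2% of all) and 11 lower (46.7% of all), and at 3, 6 and 12 h alone it was -0.02, 0.09 and 0.15. Of the 9 fibrillar genes 3 were then called lower (Col1a1, Col3a1 and Col11a2) and 1, Col2a1, higher, with a median of -0.13. In the limma fit with time as a block 3 TSSs passed as higher (4.62% of all genes) and 2 as lower (27.5% of all). Col6a5 was at 1.52 (SE 0.34, limma adjusted p = 0.00025), Col4a3 at 0.76 (SE 0.31, limma adjusted p = 0.0434) and Col14a1 at 0.86 (SE 0.35, limma adjusted p = 0.0465). The lower ones were Col1a1 at -1.66 (SE 0.47, limma adjusted p = 0.0040) and Col16a1 at -0.92 (SE 0.36, limma adjusted p = 0.0376). All genes share 1 trend of the spread in this fit, and without the time block only Col6a5 and Col1a1 passed. Without the 3 h libraries Col4a3 no longer passed, and Col15a1 passed as higher.

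Col1a1 was the lowest of the 41 TSSs for HA-MacroH2A2. It held 11, 15 and 15 reads in ES cells and 2, 2 and 4 in MEFs at 3, 6 and 12 h, beside 8 in the no-Dox ES library and 7 and 12 for HA-H3.3. These are reads before scaling, from 11381685 distinct intervals without Dox and 16020686 to 17153206 in the ES libraries with Dox. Scaled to depth, the ES level at 3 h was not above the no-Dox level, and every MEF level was below it. The ES counts were above every MEF count, and the log2 ratio was -1.92 with 1 read added (8 against 41, interval -3.36 to -0.94), at the 3.66 percentile of all genes. From 6 and 12 h alone it was -1.97 (6 against 30). The other fibrillar TSSs gave Col11a2 -0.53 (51 against 92, -1.07 to -0.04), Col5a2 -0.48 (10 against 18, -1.82 to 0.65), Col5a1 -0.22 (33 against 48, -0.92 to 0.44), Col1a2 -0.12 (28 against 38, -0.89 to 0.61), Col3a1 -0.11 (8 against 11, -1.67 to 1.30), Col5a3 -0.12 (45 against 61, -0.72 to 0.45), Col11a1 -0.18 (9 against 13, -1.63 to 1.11) and Col2a1 0.55 (75 against 63, 0.06 to 1.06). Col1a1, which makes up most of fibroblast collagen together with Col1a2, was thus 4.14-fold lower in MEFs without added reads, while the interval at Col1a2 covered no difference. That Col1a2 window leaves out the start of its longest coding transcript. At 6 and 12 h together Col3a1 was at -0.69 (5 against 10), Col5a2 at -0.28 (7 against 10) and Col11a2 at -0.80, while Col5a1 (0.13) and Col11a1 (0.18, 8 against 8) had their signs changed.

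**Figure D3:**
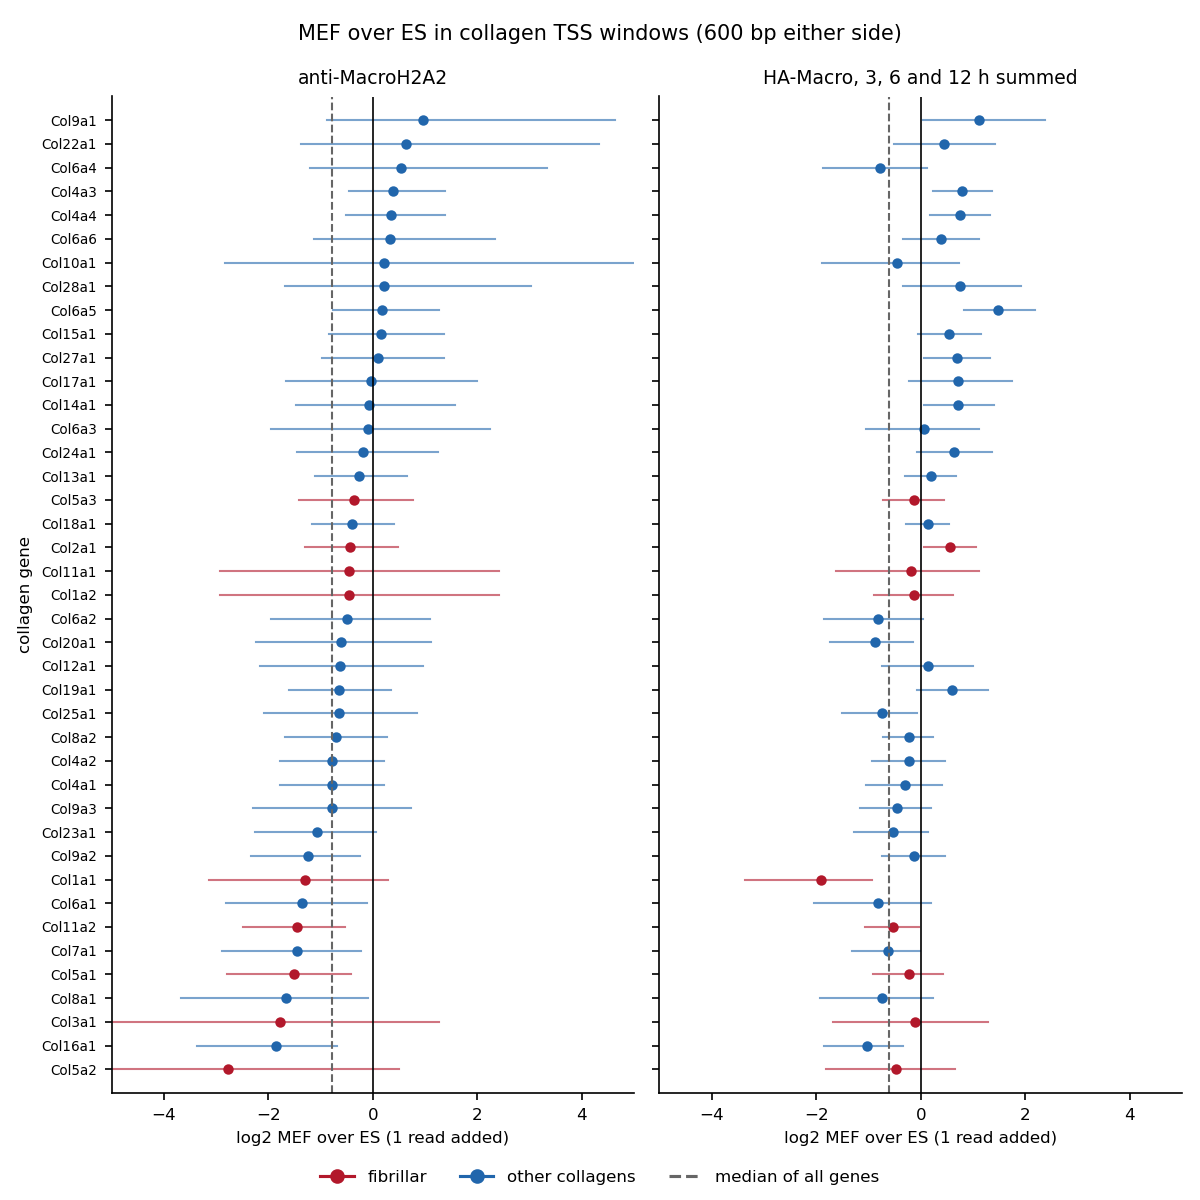
Log2 ratio of MEF to ES with 1 read added (horizontal axis) in the TSS window (1200 bp) of each collagen gene (vertical axis), for anti-MacroH2A2 (left) and HA-MacroH2A2 with 3, 6 and 12 h summed (right); lines are exact 95% counting intervals and the dashed line is the median of all genes (-0.78 and -0.62). Most anti-MacroH2A2 intervals span 0, and Col1a1 (-1.92) and Col6a5 (1.47) mark the ends for HA-MacroH2A2.

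The calls of the 2 antibodies overlapped in part. At TSSs 7 of 41 genes were called lower with both (Col20a1, Col25a1, Col16a1, Col7a1, Col6a1, Col1a1 and Col8a1), out of 19 for anti-MacroH2A2 and 9 for HA-MacroH2A2, where 37.8% of all genes were. Col9a1 was called higher with both, out of 2 and 10, where 1.57% of all were, and 1 gene was called in opposite directions. The ratios had the same sign in 30 of 41 genes, a share near the 72.1% of all genes. In bodies Col1a1 alone was called lower with both, out of 12 and 4, where 20.1% of all genes were. None of the 9 bodies called higher for HA-MacroH2A2 was called higher for anti-MacroH2A2, where 0.655% of all genes were called higher with both. The signs were the same in 29 of 41, below the 80.3% of all genes. With 6 and 12 h summed 10 TSSs were called lower with both, where 34% of all genes were, and in bodies again Col1a1, where 15% of all were. The correlation over the 41 genes was 0.63 at TSSs and 0.77 in bodies (Pearson).

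The CpG content of the start went with the ratio over all genes, and less so in collagen genes. Over all genes the median HA-MacroH2A2 ratio was -1.08 where CpG observed over expected exceeded 0.6 and -0.21 elsewhere. For collagen genes it was -0.22 (11 genes) and -0.12 (30 genes). For anti-MacroH2A2 the medians were -1.04 and -0.46 over all genes, and -0.64 and -0.42 for collagen genes. Without the 3 h libraries the HA-MacroH2A2 medians were -0.82 and -0.22 over all genes, and 0.13 and -0.09 for collagen genes, whose order was then the opposite. The difference of these differences was not tested.

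The ratio was then followed along each gene, in 4 segments of equal length of the gene body and in the 50 kb on either side of the gene, leaving out the 2 kb next to it. This division was chosen after seeing the data. In the fibrillar genes the HA-MacroH2A2 medians were 0.70 upstream, then -0.55, -0.52, -0.36 and -0.31 in the 4 segments, and 0.27 downstream. In the other genes they were -0.03, then 0.19, 0.15, 0.19 and 0.12, and -0.04. For anti-MacroH2A2 the fibrillar medians were 0.24, then -0.23, -0.64, -0.69 and -0.74, and -0.23, and those of the others 0.10, then -0.05, -0.04, -0.16 and -0.19, and -0.03. In the fibrillar set the HA-MacroH2A2 medians of the 4 segments were thus lower than those of both flanks. For anti-MacroH2A2 this held for segments 2 to 4, while segment 1 and the downstream flank had the same median. Over all genes the body median also lay below both flanks. It was -0.56 for HA-MacroH2A2, beside -0.29 upstream and -0.31 downstream, and -0.35 for anti-MacroH2A2, beside -0.20 and -0.24. When the 3 h libraries were left out, the fibrillar HA-MacroH2A2 medians were 0.62, then -0.58, -0.48, -0.38 and -0.39, and 0.21. Those of the other genes were 0.02, with the sign changed, then 0.12, 0.17, 0.17 and 0.11, and -0.08.

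Upstream of the gene, HA-MacroH2A2 was called higher in MEFs at 16 of 41 collagen genes, where 6.84% of all genes were, and lower at 5, where 26.4% were. The median over all genes was -0.29. Of the 9 fibrillar genes 6 were called higher: Col5a1 at 1.56, Col11a1 at 0.78, Col3a1 at 0.73, Col5a2 at 0.71, Col1a1 at 0.70 and Col5a3 at 0.65. Col11a2 was called lower, at -0.67. From 6 and 12 h alone 13 of 41 were called higher (5.38% of all genes) and 2 lower (20.5% of all), with 5 fibrillar genes among the 13 and 0 among the 2, and the fibrillar median was 0.62. Col1a1 (0.55) and Col5a3 (0.45) were then no longer called higher, and Col1a2 (0.62) was. For anti-MacroH2A2, 6 of 41 were called higher, where 2.16% of all genes were, and 4 lower, where 14.8% were. Col11a1 (0.74) and Col5a1 (0.60) were the fibrillar genes among the 6, and Col11a2 (-0.61) among the 4. Col3a1 and Col5a2 lie close enough that the 50 kb after each overlap the other gene. The upstream flanks of Col4a3 and Col4a4 lie in each other's body, as do those of Col4a1 and Col4a2. Those of Col6a6 and Col6a5 reach into Col6a5 and Col6a4. Col4a4 (1.01) and Col4a3 (0.62) were among the 13 called at 6 and 12 h, so that body reads of the pair are counted again there.

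**Figure D4:**
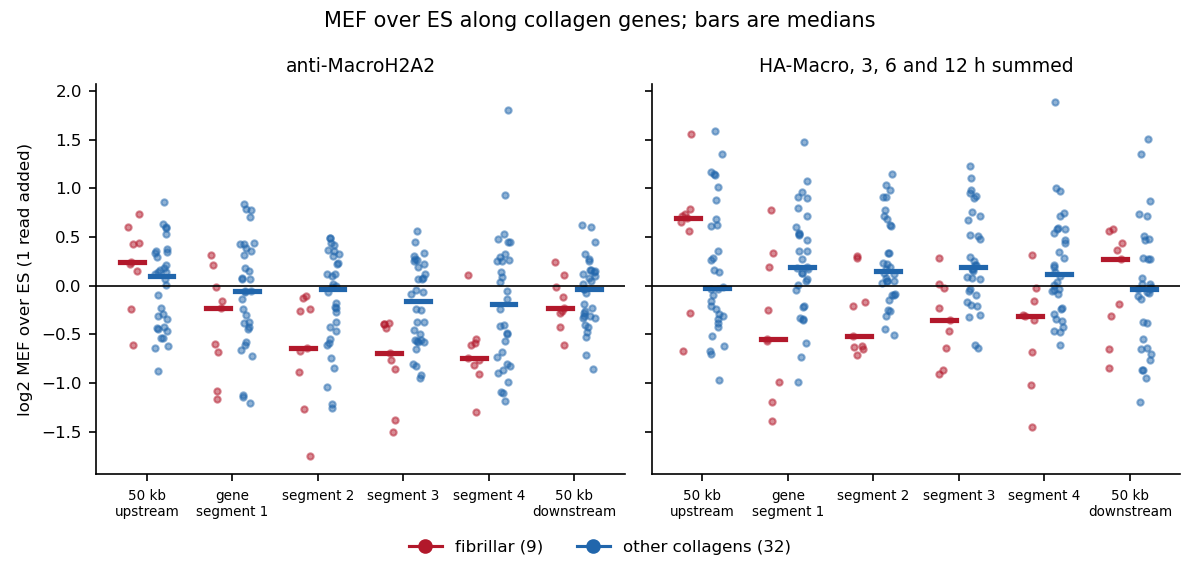
Log2 ratio of MEF to ES with 1 read added (vertical axis) in the 50 kb upstream, the 4 segments of the gene and the 50 kb downstream (horizontal axis), for anti-MacroH2A2 (left) and HA-MacroH2A2 (right); each point is 1 collagen gene and bars are medians of the 9 fibrillar and 32 other genes. The fibrillar median for HA-MacroH2A2 goes from 0.70 upstream to -0.55 in segment 1.

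Col1a1, Col3a1, Col14a1 and Col15a1 show the pattern at closer range. At Col1a1 the HA-MacroH2A2 ratio was 0.70 in the 50 kb upstream (1848 reads against 1411, interval 0.59 to 0.80), then -0.99, -0.63, -0.90 and -1.45 in the 4 segments, and -0.18 downstream (1315 against 1848, -0.29 to -0.08). For anti-MacroH2A2 it was 0.15 upstream (-0.07 to 0.37), -1.16, -1.75, -1.51 and -1.30 in the 4 segments and -0.61 downstream. Of the 6 windows at Col1a1, the 4 in the body thus had the lowest ratios with both antibodies. In 5 kb bins, HA-MacroH2A2 in ES cells reached 2.36 r.p.m. per kb at 92.5 kb past the TSS, where the no-Dox library held 0.826 and the MEF libraries 0.801. This bin lies beyond the 50 kb taken as the downstream flank.

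At Col3a1 the HA-MacroH2A2 ratio was 0.73 upstream (1202 reads against 895, interval 0.61 to 0.86), then -1.19, -0.65, -0.46 and -0.68 in the 4 segments, and -0.85 downstream, where Col5a2 lies. For anti-MacroH2A2, with 13 to 37 reads a segment and library, it was 0.43 upstream, then 0.32, -0.88, -0.44 and -0.74, and -0.28 downstream. At 6 and 12 h together HA-MacroH2A2 gave 0.68 upstream and -1.65, -0.60, -0.71 and -0.82 in the 4 segments of Col3a1, and 0.55 upstream and -1.19, -0.87, -1.0 and -1.51 at Col1a1.

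At Col14a1 the opposite sign filled the gene. The HA-MacroH2A2 ratio was 0.72, 0.91, 1.11 and 0.97 in the 4 segments, against -0.21 (-0.32 to -0.11) upstream and -0.86 (-1.01 to -0.71) downstream. For anti-MacroH2A2 it was 0.71, 0.49, 0.34 and 0.48 in the 4 segments, 0.07 upstream and -0.33 downstream. With the 3 h libraries left out, the HA-MacroH2A2 ratio at Col14a1 was 0.54, 0.81, 1.12 and 0.94 in the 4 segments. It was then -0.24 upstream and -0.55 downstream. The downstream flank and the segment at 0.54 no longer reached 1.5-fold. At Col15a1 the high ratio was wider than the gene: 1.16 upstream, 1.48, 1.04, 1.23 and 1.88 in the 4 segments and 0.71 (0.59 to 0.84) downstream for HA-MacroH2A2, and 0.85, then 0.79, 0.37, 0.08 and 0.93, and 0.28 for anti-MacroH2A2.

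**Figure D5:**
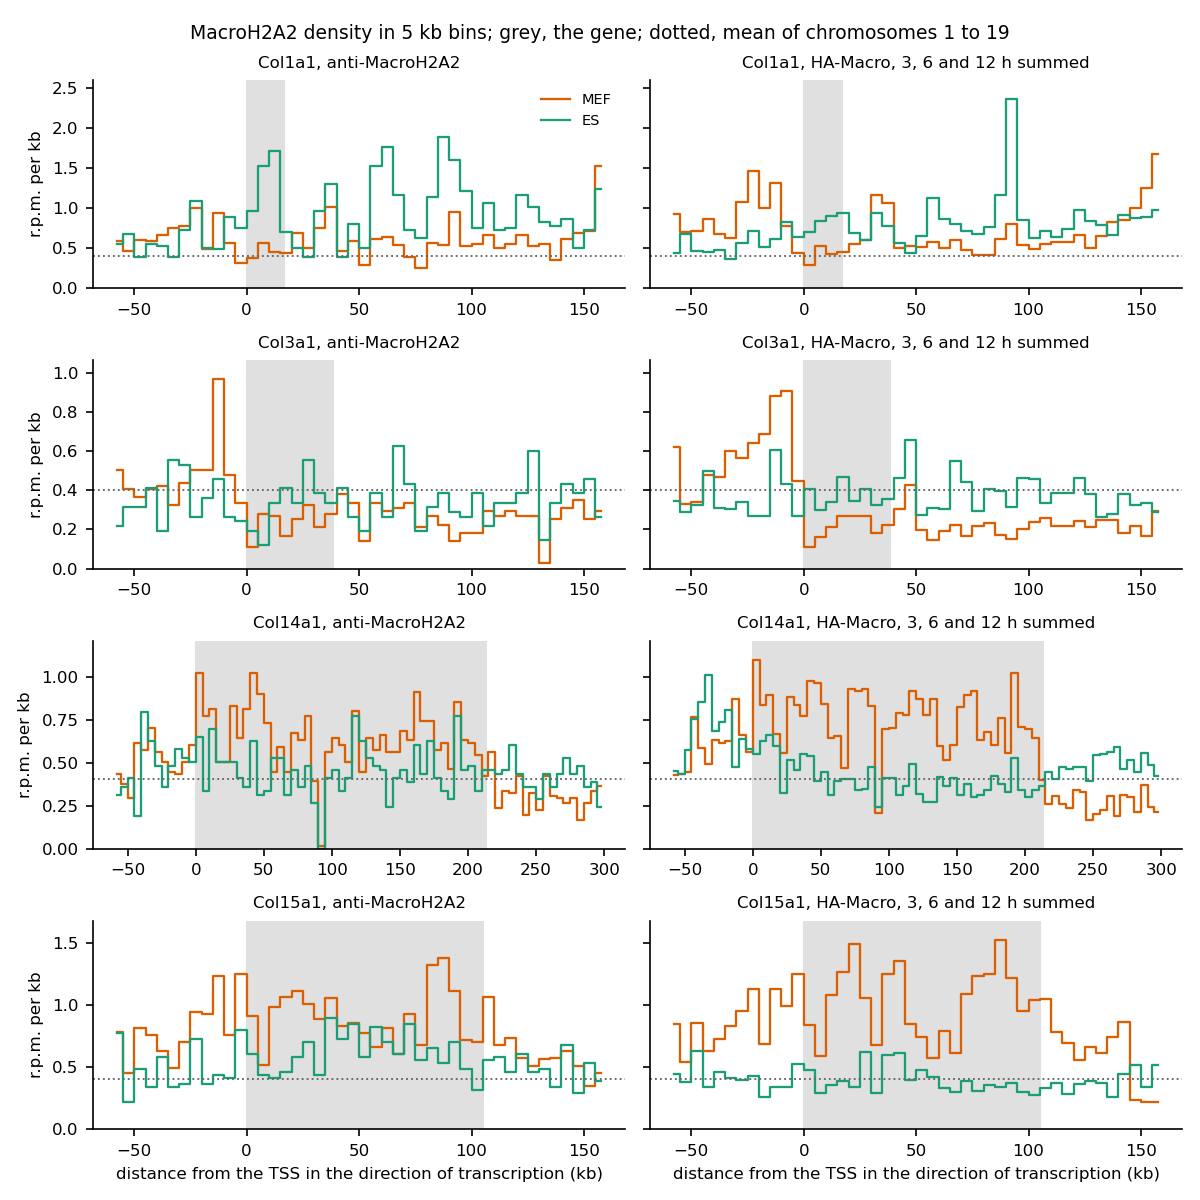
Density of MacroH2A2 (vertical axis, r.p.m. per kb in 5 kb bins) along Col1a1, Col3a1, Col14a1 and Col15a1 and their surroundings (horizontal axis, distance from the TSS in the direction of transcription in kb), with anti-MacroH2A2 in the left panels and HA-MacroH2A2 (3, 6 and 12 h summed) in the right panels, and 1 line per cell type; grey marks the gene and the dotted line the mean of chromosomes 1 to 19 (0.4045). MEF density drops below ES density within Col1a1 and, for HA-MacroH2A2, Col3a1, rises above it over the extent of Col14a1, and stays above it beyond both ends of Col15a1.

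The Dox time course compared the TSS level of HA-MacroH2A2 late (12 h) and early (3 h) after induction. In ES cells the median was -0.21 against -0.48 for all genes. Called higher were 4 of 41 (11.7% of all genes) and lower 13 (44.9% of all), and the interval excluded 0 at 3: Col12a1 (13 reads at 3 h, 3 at 12 h), Col5a1 (21 and 10) and Col18a1 (43 and 25). With 6 h in place of the 3 h library the median was -0.15, and Col4a1 and Col4a2, 1 shared region (22 reads at 6 h, 8 at 12 h), were the genes whose interval excluded 0. In MEFs the median was -0.19 against -0.24. Called higher were 4 (12% of all) and lower 12 (31.6% of all), with the interval below 0 at Col8a1 (7 and 2 reads), Col16a1 (10 and 6) and Col18a1 (35 and 37, the latter in the deeper library). With 6 h in place of 3 h the MEF median was -0.46, and no interval excluded 0.

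Gene bodies changed little with time in MEFs (median 0.00 for 12 h over 3 h, and for all genes -0.00). In ES cells the median was 0.22 against -0.23 for all genes, and 0.07 against -0.06 with 6 h in place of 3 h. Col18a1 and Col10a1, the collagen of hypertrophic cartilage, had the lowest body ratios in ES cells. Col18a1 held 1.15, 0.721 and 0.638 r.p.m. per kb at 3, 6 and 12 h (log2 12 h over 3 h -0.85, interval -0.96 to -0.75), and Col10a1 0.819, 0.386 and 0.365 (-1.14, -1.82 to -0.54). For both, the high value was that of the 3 h library, and with 6 h in its place the ratios were -0.18 (-0.29 to -0.06) and -0.08 (-0.83 to 0.67). These genes were singled out after their values were seen.

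HA-H3.3 was lower in collagen genes than in the median gene in ES cells. No library of uninduced HA-H3.3 cells is among the 11, so these levels have no background beside them. At 3 h the TSS window of a collagen gene held a median of 7 reads. The median body density was 0.462 r.p.m. per kb at 3 h and 0.323 at 6 h, against 0.532 and 0.559 for all genes, and the median TSS level was 1.11 and 1.25 r.p.m. against 1.27 and 1.83. From 3 to 6 h the body ratio had a median of -0.43 (all genes 0.05), and the TSS ratio 0.08 (0.34). The highest TSS levels at 6 h were those of Col13a1 (51 reads, percentile 88.7), Col7a1 and Col5a1 (38 each, 77.4), Col15a1 (36, 75.0) and Col18a1 (35, 73.8). Among fibrillar genes, Col1a1 lay at percentile 37.8, Col1a2 at 32.7 and Col3a1 at 23, beside 77.4 at Col5a1. For 6 h over 3 h 12 of 41 bodies were called lower, where 11.3% of all genes were, and 0 higher, where 13.3% were. The interval lay below 0 in 30 bodies and above 0 in 3 (share of all genes not computed), none of the 3 reaching 1.5-fold: Col9a2 with 0.605 and 0.904 r.p.m. per kb at 3 and 6 h, a log2 ratio of 0.56 (0.11 to 1.07), Col18a1 with 1.06 and 1.5 at 0.50 (0.38 to 0.63), and Col8a2 at 0.39 (0.08 to 0.72). Col13a1, Col18a1, Col9a2 and Col8a2 were named here after their values were seen.

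Genes that process collagen were examined with the same measures, from a list of 46 symbols of which 44 were found on chromosomes 1 to 19. At TSSs their median ratio of MEF to ES was -1.09 for anti-MacroH2A2, with 2 called higher and 31 lower, where 7.06% and 58.5% of all genes were. For HA-MacroH2A2 it was -0.68, with 4 called higher and 24 lower, where 9.38% and 51.4% of all were, so that the count of lower calls was near the share of all genes. In bodies the median was -0.51 for anti-MacroH2A2 (0 higher and 19 lower, against 2.37% and 28.4% of all genes). It was -0.44 for HA-MacroH2A2 (5 and 18, against 5.21% and 48.3% of all). Without the 3 h libraries the HA-MacroH2A2 medians were -0.54 at TSSs and -0.50 in bodies. At TSSs 5 were then called higher and 22 lower (10.2% and 46.7% of all genes), and in bodies 2 and 18 (4.43% and 34.5% of all), so that the TSS counts are near the shares of all genes. The lysyl oxidases, which cross-link collagen, were called lower at 5 of 5 TSSs for anti-MacroH2A2 (median -1.87), a call that 58.5% of all genes shared. Lox held 12 reads in ES cells and 3 in MEFs (-2.48, interval -5.25 to -0.89) and Loxl2 16 and 7 (-1.87, -3.50 to -0.61). For HA-MacroH2A2 2 of 5 were called lower (median -0.35), beside 51.4% of all genes, and Lox was at 0.06 (15 against 18 reads). At 3, 6 and 12 h alone the median of the 5 was -0.28, -0.25 and -1.17, against -0.61, -0.41 and -0.43 for all genes. Lox was called higher at 3 h and 6 h alone and lower at 12 h alone.

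The enzymes and chaperones of collagen folding and export gave medians of -1.0 and -1.18 at TSSs, with 12 of 16 called lower for each antibody, where 58.5% and 51.4% of all genes were, and 1 called higher for each, Glt25d2 for anti-MacroH2A2 (20 against 3 reads) and P4ha2 for HA-MacroH2A2 (48 against 38, interval -0.00084 to 1.30). P4hb, a subunit of prolyl 4-hydroxylase, held 12 HA-MacroH2A2 reads in MEFs and 65 in ES cells (-2.04, -3.15 to -1.23), Lepre1, a prolyl 3-hydroxylase, 20 and 95 (-1.89, -2.72 to -1.23), and Serpinh1, the collagen chaperone Hsp47, 20 and 61 (-1.25, -2.11 to -0.55). For HA-MacroH2A2 the P4hb TSS gave a lower ratio than any collagen gene, and those of Lepre1 and Serpinh1 than any but Col1a1. These 3, and Lox and Loxl2 above, were picked after their values were seen. Propeptide-removing proteases had TSS medians of -0.96 and -0.37, receptors -1.10 and -0.07, and degrading proteases -0.50 and 0.20. Leaving out the 3 h libraries, the HA-MacroH2A2 TSS medians were -1.06 for folding and export (12 of 16 lower), -0.31 for lysyl oxidases, -0.18 for the proteases that remove propeptides, -0.18 for receptors and, with its sign changed, -0.05 for degrading proteases. The small proteoglycans that bind fibrils went the other way in bodies for HA-MacroH2A2, with Dcn at 0.67 (0.50 to 0.85), Lum at 0.72 (0.31 to 1.15) and Fmod at 0.75 (0.53 to 0.98), 3 of 3 called higher (5.21% of all genes). When the 3 h libraries were left out, 1 of 3, Dcn, was called higher. For anti-MacroH2A2 Dcn was at 0.55 (248 reads against 98, 0.22 to 0.91), Lum at 0.19 (-0.53 to 1.01) and Fmod at -0.19 (-0.60 to 0.24). At the TSSs of these proteoglycans the HA-MacroH2A2 median was -0.24. There 0 were called higher and 1, Lum, lower, beside 9.38% and 51.4% of all genes. Leaving out the 3 h libraries, that median was 0.06.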

How the data were processed

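ChIP-Seq of HA-tagged and endogenous histones was analysed in 11 libraries, 1 per condition, grouped by their labels. The authors collapsed reads by sequence, mapped them with Bowtie (version 1.0 and mm9 per the submitters' processing notes) allowing 1 mismatch, randomly picked a single site for each multimapper, and lengthened each alignment. The deposited files hold mapped intervals without strand, 150 bp long in the HA-MacroH2A2 libraries and 400 bp in the others, so that the read count of a window was obtained here by counting interval midpoints. Each distinct interval was counted once (0.464% to 6% were repeats), and counts were scaled to the distinct intervals on chromosomes 1 to 19. No coordinate column carries a measurement of its own. Ratios had 1 read added to each count, called means at least 1.5-fold, and intervals are exact Clopper-Pearson. Python 3.11.15 with numpy 2.4.6, pandas 2.3.3 and scipy 1.17.1 was used, with R 4.3.3 and limma 3.58.1 for 1 test: log2 of scaled counts with 1 read added, cell type and Dox time as terms, a mean-variance trend, and Benjamini-Hochberg adjustment over all genes. The ratios, their counting intervals and the limma step were tested on simulated counts. In the limma simulation the changes were placed among the windows with the most reads, without a time effect or a shift of all genes. It therefore does not cover changes at windows with few reads, such as the TSS windows. The counting of midpoints was not tested on simulated data.

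The members and lists were chosen with earlier results of these data known. Named genes were the fibrillar members, the 3 highest and 3 lowest anti-MacroH2A2 ratios in bodies and at TSSs (at least 20 reads in both libraries together) and the divergent type 4 pairs. Genes named outside this rule fall in a count that is spelled out or are said to be chosen after their values were seen. Of the pathway symbols, Bgn lies outside chromosomes 1 to 19, and Mia3 was not matched and is not analysed here. Alternatives were every interval, thinned libraries, 300 and 1000 bp windows, 5 added reads, at least 10 reads, single time points, bodies from 5 kb, leaving out Col1a1, and centring on all genes. Further ones were scaling to chromosomes 1 to 19, X and Y, the TSS of the longest coding transcript, bodies without bases near other TSSs, and leaving out Col4a2 and Col4a4. The 3 h libraries were left out of the role, pathway, CpG, segment, order and overlap results after seeing the data, and 3 and 6 h alone and the upstream flank alternatives were likewise added. Published expression data were not used here.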

Additional observations from a re-analysis of the deposited data

Results flagged for a closer look

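The HA-MacroH2A2 ES library at 3 h placed 0.1115% of its reads on chromosome Y, a chromosome that none of the collagen comparisons use. The no-Dox library of the same line, which is its control, held 0.02436%, the 6 h library 0.02191% and the 12 h library 0.02279%, and the MEF libraries 0.01978% to 0.02264%. The libraries with 400 bp intervals ranged from 0.0423% (anti-MacroH2A2 MEF) to 0.1023% (HA-H3.3 at 3 h). The part of this in the 3 h values of the collagen genes was not tested, and the values without the 3 h libraries stand in the report beside many of those they move.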

How the results depend on the processing

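The fibrillar median stayed below that of the other collagens under every alternative run: the gap was -0.96 at TSSs (-1.0 to -0.62) and -0.32 in bodies (-0.47 to -0.31) for anti-MacroH2A2, and -0.28 (-0.62 to -0.15) and -0.46 (-0.64 to -0.42) for HA-MacroH2A2. It moved by more than its counting spread with 1000 bp windows at HA-MacroH2A2 TSSs (-0.62), in bodies of thinned libraries (-0.47 for anti-MacroH2A2, -0.51 for HA-MacroH2A2) and in HA-MacroH2A2 bodies at 12 h alone (-0.62) and 3 h alone (-0.64). Centred on all genes, the medians of the 41 members, which lay above those of all genes, changed sign: 0.32 for anti-MacroH2A2 TSSs, 0.49 for HA-MacroH2A2 TSSs, 0.059 for anti-MacroH2A2 bodies, 0.26 and 0.054 for 12 h over 3 h in ES cells and MEFs, while HA-MacroH2A2 bodies moved to 0.63 and the fibrillar upstream median to 0.98. The HA-MacroH2A2 TSS median also changed sign with 300 bp windows (0.031) and at 6 h (0.086) and 12 h alone (0.15), and was -0.025 at 3 h alone and -0.0093 without the 3 h libraries; the anti-MacroH2A2 TSS median was -0.78 with 300 bp windows. That -0.78 is the ratio that equal counts in the 2 libraries give. Added reads are not scaled to depth, so that adding 5 in place of 1 draws ratios further towards that of equal counts. The causes were not tested. The HA-MacroH2A2 body median was 0.10 with every interval counted, 0.11 without Col1a1, and 0.22, 0.11 and 0.049 at 3, 6 and 12 h alone. The MEF time median was -0.42 with 5 reads added and -0.46 with 6 h in place of 3 h, and the fibrillar upstream median was 0.62 without the 3 h libraries.

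Counts of members moved by over 1.5 times with centring: at TSSs from 2 higher and 19 lower to 15 and 7 (anti-MacroH2A2) and from 10 and 9 to 18 and 1 (HA-MacroH2A2), and in bodies from 0 and 12 to 9 and 3 and from 9 and 4 to 24 and 0. The 2 higher anti-MacroH2A2 TSSs became 0 with 5 reads added, 1 with at least 10 reads and 6 with 1000 bp windows. No replicate could be left out, since each condition has 1 library. By replicate number, no paired analysis was possible because each condition has 1 library, numbered 1. Pairing the HA-MacroH2A2 libraries by Dox time was possible: the limma fit with that block passed 12 bodies as higher and 4 as lower, against 14 and 4 without the block and 18 and 11 without the 3 h libraries. At TSSs it passed 3 and 2, against 1 and 1 without the block and 3 and 2 without the 3 h libraries, there with Col15a1 in place of Col4a3. Depth limits the TSS windows, where 20 of 41 members held under 20 anti-MacroH2A2 reads in both libraries together.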
